A study of Mus musculus with 13 samples.

Results

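The 10 genes described here belong to the Notch pathway. They encode the ligands Dll1, Dll4, Jag1 and Jag2, the receptor Notch1, the glycosyltransferase Lfng and the transcriptional repressors Hes1, Hes5, Hey1 and Hey2. They were chosen by name out of 22367 protein-coding genes of the GENCODE annotation of the mouse genome (mm9 build), and all 10 were found there. For each gene, the peaks of 5 ChIP-seq lists were counted where they overlapped, by at least 1 bp, the promoter or the gene body. The promoter was taken as the annotated start of the gene and 1 kb on either side, 2001 bp in all, and the gene body as the whole annotated gene. In ChIP-seq, DNA bound to a protein or carrying a histone mark is precipitated and sequenced, and a peak is a stretch where it piles up above background.

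The lists came from wild-type mouse embryonic stem cells (mESCs), labelled as a 129/1 XY line, grown on gelatine with serum and LIF, with no further treatment. AEBP2, an accessory subunit of the Polycomb complex PRC2, was precipitated at its endogenous level with an antibody raised for the study (replicates 1 and 2). The mark made by PRC2, trimethylated lysine 27 of histone H3 (H3K27me3), also had replicates 1 and 2, although the labels name its antibody only as against H3K27. FS2-AEBP2 was AEBP2 with an N-terminal Flag-StrepII tag, expressed from a plasmid in cells that also carry the endogenous protein, and had 1 list with no replicate. It was precipitated by a different protocol, and the methods name E14 cells for expression of the tagged protein where the labels name the 129/1 line. The SUZ12, input and AEBP2 KO samples were not analysed here. For H3K27me3, the numbers in the list names appear swapped against those in the sample records, and the records were followed. Depth is unknown, since no read counts come with the peaks, and a missing peak does not show that the protein or mark was absent.

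The lists held 2877 and 6779 AEBP2 peaks, 2884 FS2-AEBP2 peaks, and 14112 and 9275 H3K27me3 peaks, so a gene had more chances of a peak in AEBP2 replicate 2 than in replicate 1. As a check of the cells, 6 of the 7 mESC genes Pou5f1, Nanog, Sox2, Klf4, Esrrb, Zfp42 and Tdgf1 had no promoter peak in any list, as had 68.5% of all genes. Of these 6, Esrrb had peaks of all 5 lists over its gene body. Klf4 was the exception, with a peak for FS2-AEBP2 and H3K27me3 replicate 1. Of 6 lineage regulators that are silent in mESCs, Pax6, T, Sox17, Neurog2 and Myod1 had a promoter peak in all 5 lists and Gata4 in 3. Of all genes, 4.57% had a promoter peak in all 5 lists. These marker genes were chosen with earlier results of these data known.

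Notch signalling passes between neighbouring cells. A Delta-like or Jagged ligand on the sending cell binds a Notch receptor on the receiving cell, the receptor is cut by proteases, and its intracellular part enters the nucleus, where it works with the DNA-binding protein RBPJ to switch on genes of the Hes and Hey families. The Hes and Hey proteins are bHLH repressors that hold back differentiation genes, and fringe enzymes such as Lfng add sugars to the receptor that change its response to the ligands. The pathway is used in somite formation, the nervous system and blood vessels. PRC2 is known to mark many such developmental genes in mESCs, mostly at CpG islands, which are stretches rich in the dinucleotide CpG.

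The 250 bases before the start of the lowest-numbered protein-coding transcript are given for 5 of the genes, at least 1 of each role, read from the mm9 genome in the direction of transcription, with every CpG in capitals. Dll4 (chr2:119151270-119151519, plus strand), Lfng (chr5:141083045-141083294, plus strand) and Hes5 (chr4:154334782-154335031, plus strand) are genes with a promoter peak in all 5 lists. Hes1 (chr16:30065176-30065425, plus strand) had a peak in 1 list and Notch1 (chr2:26359343-26359592, minus strand) in none.
Dll4: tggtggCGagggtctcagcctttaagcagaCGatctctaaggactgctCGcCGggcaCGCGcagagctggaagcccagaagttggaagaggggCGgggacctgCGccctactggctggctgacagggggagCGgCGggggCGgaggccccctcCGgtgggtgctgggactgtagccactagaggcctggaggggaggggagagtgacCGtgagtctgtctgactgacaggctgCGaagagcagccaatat
Lfng: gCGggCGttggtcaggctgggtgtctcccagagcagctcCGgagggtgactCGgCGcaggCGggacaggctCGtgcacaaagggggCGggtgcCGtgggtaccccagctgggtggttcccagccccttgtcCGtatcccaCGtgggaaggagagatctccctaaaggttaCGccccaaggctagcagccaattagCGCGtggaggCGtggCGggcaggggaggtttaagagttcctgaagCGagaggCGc
Hes5: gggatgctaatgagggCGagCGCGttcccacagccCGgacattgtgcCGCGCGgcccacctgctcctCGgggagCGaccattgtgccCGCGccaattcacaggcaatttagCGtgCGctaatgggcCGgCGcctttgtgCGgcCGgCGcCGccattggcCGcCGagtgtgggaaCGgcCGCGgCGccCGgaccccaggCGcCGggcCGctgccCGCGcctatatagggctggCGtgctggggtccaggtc
Hes1: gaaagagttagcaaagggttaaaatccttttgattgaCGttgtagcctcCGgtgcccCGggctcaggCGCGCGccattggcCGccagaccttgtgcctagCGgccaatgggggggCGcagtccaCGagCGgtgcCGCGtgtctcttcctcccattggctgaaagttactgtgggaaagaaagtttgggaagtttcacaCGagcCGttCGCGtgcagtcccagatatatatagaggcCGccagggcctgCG
Notch1: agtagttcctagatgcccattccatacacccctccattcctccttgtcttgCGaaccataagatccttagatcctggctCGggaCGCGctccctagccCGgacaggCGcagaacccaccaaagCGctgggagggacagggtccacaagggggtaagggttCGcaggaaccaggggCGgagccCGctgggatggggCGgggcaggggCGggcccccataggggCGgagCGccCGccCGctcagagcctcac
These stretches held 14 CpGs in Dll4, 18 in Lfng, 32 in Hes5, 19 in Hes1 and 16 in Notch1, where the median of all protein-coding genes was 9. All 250 bases lay under a peak of both AEBP2 and both H3K27me3 replicates in Dll4, Lfng and Hes5, and under no peak of any list in Hes1 and Notch1. The core of the RBPJ site, TGGGAA, was searched on both strands. It lay in the same 250 bases of 4 of the 10 genes (Lfng, Hes1, Hes5 and Hey2), against 20.7% of all 22367 promoters. Hes1 held it 2 times, both on the strand shown, and Lfng and Hes5 held it 1 time on each strand.

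Promoter peaks were found at most of the 10 genes. AEBP2 replicate 1 had a promoter peak at 6 of them, where 9.08% of all protein-coding genes had one. AEBP2 replicate 2 had a peak at 9 (22.3% of all genes), FS2-AEBP2 at 6 (6.53%), H3K27me3 replicate 1 at 7 (17%) and H3K27me3 replicate 2 at 8 (17.7%). Both AEBP2 replicates had a peak at 6 (8.44% of all genes), and both H3K27me3 replicates at 7 (15%). The 6 genes with AEBP2 in both, namely Dll1, Dll4, Lfng, Hes5, Hey1 and Hey2, had H3K27me3 in both as well (5.88% of all genes) and were in all 5 lists (4.57%). Jag1, Jag2 and Hes1 had an AEBP2 peak in replicate 2 and not in replicate 1, as did 13.8% of all genes. Jag2 was the other gene with H3K27me3 in both replicates.

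Of the 7 genes with H3K27me3 in both replicates, 6 had an AEBP2 peak in replicate 1 and 7 had one in replicate 2, while FS2-AEBP2 had a peak at 6. Among the 3349 genes with H3K27me3 in both replicates these shares were 40.9%, 68.3% and 38.2%. AEBP2 was in both replicates at 6 of the 7 and at 39.3% of the 3349, and all 5 lists had a peak at 6 of the 7 and at 30.5%. The 10 genes were chosen by name with earlier results of these data known, so these counts are a description, and no test was made.

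**Figure D1:**
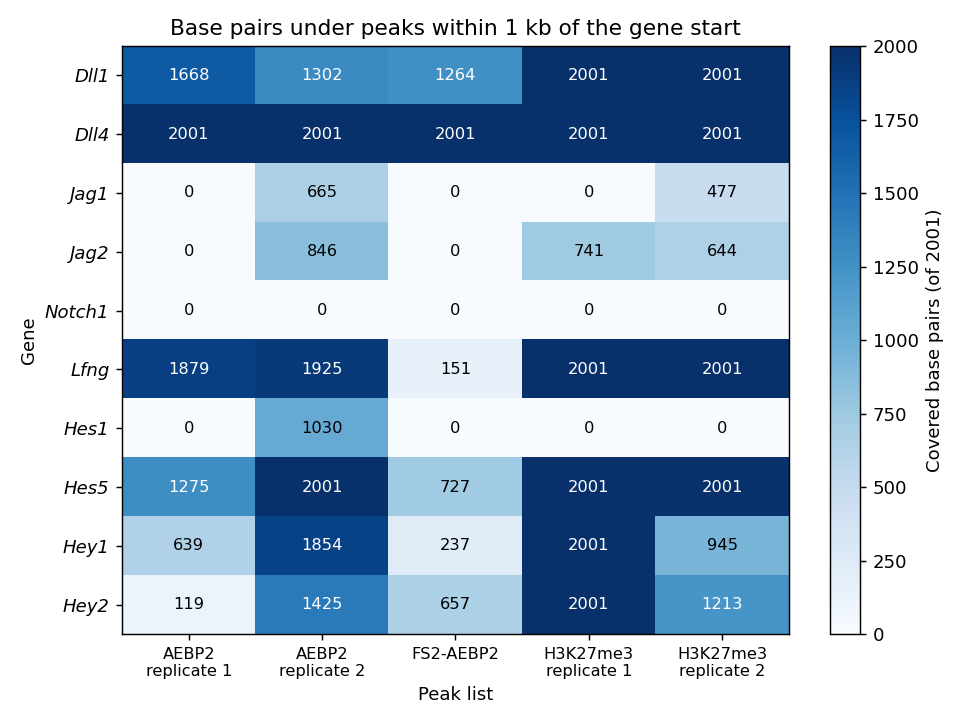
Base pairs of the 2001 bp promoter that lay under peaks, for each of the 10 genes (rows) in each of the 5 lists (columns), with darker cells for more. Dll4 is covered over all 2001 bp in every list and Notch1 is at 0 in every list, while FS2-AEBP2 covers 151 bp at Lfng and 237 bp at Hey1.

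The Delta-like ligands Dll1 and Dll4 had the longest AEBP2 promoter peaks of the 10 genes in replicate 1. Dll4 (ENSMUSG00000027314, chr2:119151520-119161698, plus strand), a ligand known from blood vessels, had AEBP2 peaks of 8824 bp in replicate 1 and 8990 bp in replicate 2, the longest of the 10 genes in each. These began 5251 and 5328 bp upstream of the gene start and ended 3572 and 3661 bp after it, so the ends differed by less than 100 bp between replicates. The FS2-AEBP2 promoter peak measured 5345 bp, with shorter peaks of 557 bp upstream of it and 888 bp in the gene. H3K27me3 peaks of 20967 and 18441 bp enclosed them, and H3K27me3 replicate 1 covered the whole gene. The score of the promoter peak, ranked as the percentage of peaks of the same list with a lower score, was 72.5% and 97.4% in the AEBP2 replicates, 86.3% for FS2-AEBP2 and 99.4% in H3K27me3 replicate 2. In H3K27me3 replicate 1 it scored 54, where the highest of the list was 58.

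Dll1 (ENSMUSG00000014773, chr17:15504318-15513836, minus strand), a ligand needed for somite formation, had AEBP2 promoter peaks of 3152 and 4914 bp, an FS2-AEBP2 peak of 2791 bp and H3K27me3 peaks of 17960 and 14272 bp. The FS2-AEBP2 peak and that of AEBP2 replicate 1 ended 2527 and 2484 bp after the gene start, and that of AEBP2 replicate 2 reached 4612 bp. The rank of the AEBP2 peak was 54.7% in replicate 1 and 95.3% in replicate 2. For H3K27me3 it was 99.4% and 77.5%. AEBP2 replicate 2 also had a peak of 2171 bp further upstream that replicate 1 lacked. The annotated gene start belongs to a non-coding transcript, and the lowest-numbered coding transcript starts 896 bp further on. All 2001 bp around that coding start lay under peaks in each of the 5 lists.

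The Jagged ligands had short peaks, in fewer lists. Jag2 (ENSMUSG00000002799, chr12:114146801-114167706, minus strand) had an AEBP2 peak of 1055 bp in replicate 2, from 155 to 1209 bp after the gene start, and no peak in the other AEBP2 lists. Its H3K27me3 peaks measured 2391 and 1591 bp and began 260 and 357 bp after the start, with ranks of 83.5% and 59.8%. The AEBP2 peak of Jag2 ranked at 35.2%. The peaks touched exon 2 of 26 and not the start site itself. Jag1 (ENSMUSG00000027276, chr2:136907192-136942380, minus strand) had an AEBP2 peak of 1624 bp in replicate 2, which ranked at 2.5%, and an H3K27me3 peak of 879 bp in replicate 2, which ranked at 28.0%. The other replicate of either target had no peak at Jag1, so each rests on 1 list. The nearest H3K27me3 peak of replicate 1 was 583011 bp away from the Jag1 start, and the nearest AEBP2 peak of replicate 1 to the Jag2 start was 51549 bp away. A pattern of promoter peaks like that of Jag1, in AEBP2 replicate 2 and H3K27me3 replicate 2 and no other list, was found at 120 genes (0.537%), and that of Jag2 at 756 (3.38%).

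Notch1 (ENSMUSG00000026923, chr2:26313423-26372183, minus strand), the receptor, had no peak of any list at its promoter or anywhere in its 58761 bp. No promoter peak in any list was the state of 68.5% of all genes, and no peak over the gene body that of 64%. The nearest AEBP2 peaks lay 309504 and 69949 bp from the gene start in replicates 1 and 2, and the nearest H3K27me3 peaks 145258 and 308548 bp. The annotated start lies 12841 bp before that of the lowest-numbered coding transcript, and held 28 CpGs within 1 kb. That coding transcript starts in a region with 129 CpGs within 1 kb, and none of the 5 lists had a peak there either.

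Lfng (ENSMUSG00000029570, chr5:141083295-141091497, plus strand), which acts in the somite segmentation clock, had AEBP2 peaks of 1897 and 2572 bp that contained the gene start and touched exon 1 of 8. Their ranks were alike, at 62.5% in replicate 1 and 63.1% in replicate 2. The FS2-AEBP2 peak at Lfng was only 151 bp long, with a rank of 1.2%, and lay 502 to 652 bp after the start. H3K27me3 covered the whole promoter in both replicates, in peaks of 11817 and 8372 bp that ended at nearly the same place, 4492 and 4545 bp after the gene start, and began 7324 and 3826 bp before it.

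The Hes genes went apart. Hes5 (ENSMUSG00000048001, chr4:154335032-154336480, plus strand), a main Notch target of neural progenitors, lay whole under a peak of both AEBP2 replicates and both H3K27me3 replicates, and 81.1% of its 1449 bp lay under FS2-AEBP2. Its AEBP2 peak measured 2012 bp in replicate 1 and 6275 bp in replicate 2, with ranks of 47.2% and 82.5%. The longer peak also contained the start of the neighbouring gene Pank4. The H3K27me3 peaks measured 15752 and 7016 bp and ended 3062 and 3043 bp after the start, with ranks of 86.6% and 86.5%. Upstream, replicate 2 had a separate H3K27me3 peak of 6195 bp where replicate 1 had a continuous one.

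Hes1 (ENSMUSG00000022528, chr16:30064470-30067882, plus strand), the Notch target whose product oscillates in many progenitors, lacked peaks in 4 of the 5 lists, both H3K27me3 replicates among them. AEBP2 replicate 2 had a peak of 1153 bp at its promoter, ranked at 25.2%, and a peak of 1326 bp in the 3 prime part of the gene, ranked at 35.2%. The annotated start belongs to a non-coding transcript, and the coding transcript starts 956 bp further on, between these peaks and 750 bp from the nearer. The nearest H3K27me3 peaks were 169131 and 80441 bp from the gene start. A peak in AEBP2 replicate 2 and no other list was found at the promoters of 1884 genes (8.42%).

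The Hey genes had peaks in all 5 lists, broken into several pieces in some. Hey1 (ENSMUSG00000040289, chr3:8663362-8667039, minus strand), known from the heart and vessels like Hey2, had an AEBP2 peak of 1979 bp in replicate 1 that began 362 bp after the gene start, and a promoter peak of 2481 bp in replicate 2 that reached 1627 bp upstream. FS2-AEBP2 had 3 peaks in the gene, of 237, 262 and 293 bp. The first of them lay in the promoter, and the next began 1048 bp after the start, just outside it. H3K27me3 was a peak of 12415 bp in replicate 1, and peaks of 4694 and 4479 bp in replicate 2 with the start site in the gap between them. Hey2 (ENSMUSG00000019789, chr10:30552165-30562607, minus strand) showed the same form, with an H3K27me3 peak of 8670 bp in replicate 1 and peaks of 2398 and 4421 bp on either side of the start in replicate 2. The AEBP2 peak of Hey2 in replicate 1 measured 1093 bp, ranked at 2.7%, and lay upstream with 119 bp inside the promoter, so this call rests on the width of the promoter. In replicate 2 the peak of 2408 bp contained the start and ranked at 44.3%. FS2-AEBP2 peaks of 574 and 911 bp flanked the start of Hey2.

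**Figure D2:**
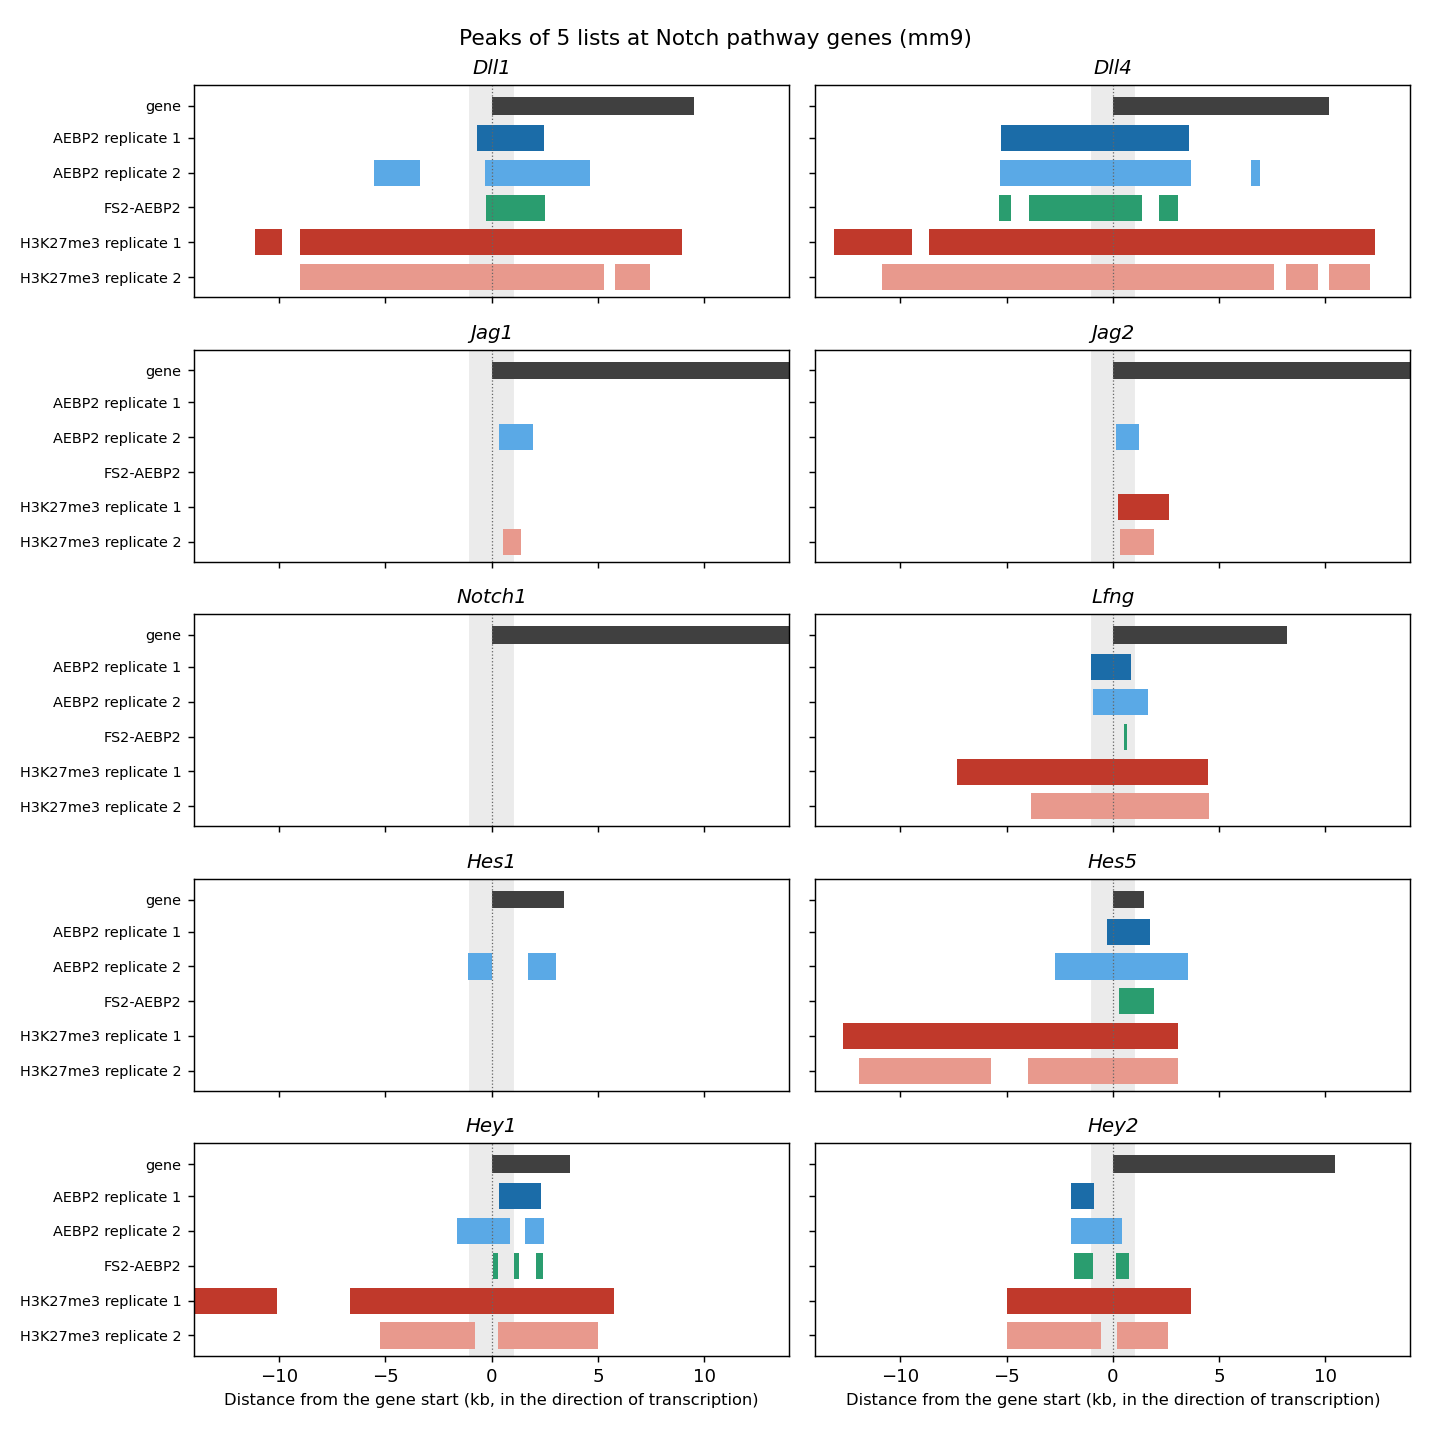
Peaks of the 5 lists (coloured bars, 1 row per list) within 14 kb of the start of each of the 10 genes, with the gene in dark grey and the promoter shaded, and distance in kb in the direction of transcription on the x axis. H3K27me3 bars enclose the AEBP2 bars at Dll1, Dll4 and Lfng, Hey1 and Hey2 have a gap in H3K27me3 replicate 2 at the start site, and the panel of Notch1 is empty.

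AEBP2 replicate 1 lay wholly inside H3K27me3 at these genes, and AEBP2 replicate 2 and FS2-AEBP2 less fully. All base pairs of the 6 AEBP2 promoter peaks of replicate 1 lay under H3K27me3 peaks of both replicates. For the 9 of replicate 2 the share was 83.1%, with 0% at Hes1 and Jag1, 57.4% at Hey1 and 67.3% at Hey2. At Jag1 54.1% lay inside H3K27me3 replicate 2, replicate 1 having no peak there, and at Hes1 neither replicate overlapped. At Hey1 and Hey2 H3K27me3 replicate 1 alone covered 100% of them, and the rest fell in the gap of replicate 2. For FS2-AEBP2 the share was 97.5%, with 90.8% at Hey2 and 10.1% at Hey1, where H3K27me3 replicate 1 alone covered 100%. The AEBP2 promoter peaks of replicate 1 were shorter than the H3K27me3 promoter peaks of either replicate at all 6 genes. In replicate 2 Jag1 (1624 against 879 bp) and Hey2 (2408 against 2398 bp) were exceptions, each against H3K27me3 replicate 2. Hey2 had a further H3K27me3 peak of 4421 bp at its promoter in that replicate. The same order was seen in the medians of the 1023 genes in all 5 lists. These were 2466 bp for AEBP2 replicate 1 against 9317 and 7880 bp for the H3K27me3 replicates.

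By median, the AEBP2 peaks ranked in the middle of their lists and the H3K27me3 peaks higher. The median rank of the promoter peaks of the 10 genes was 50.9% in AEBP2 replicate 1 (6 genes) and 51.9% in replicate 2 (9 genes), where all genes with a promoter peak had medians of 47.2% and 51.9%. For H3K27me3 it was 86.6% (7 genes) and 82.0% (8 genes), against 79.4% and 68.1% over all genes with a promoter peak. In H3K27me3 replicate 2 Jag1 (28.0%), Hey2 (54.1%) and Jag2 (59.8%) ranked lowest. For FS2-AEBP2 it was 26.6% (6 genes), against 57.5%. Ranks ran from 2.7% at Hey2 to 72.5% at Dll4 in AEBP2 replicate 1 and from 2.5% at Jag1 to 97.4% at Dll4 in replicate 2. The same 2 genes, Dll4 and Dll1, had the highest ranks in AEBP2 replicate 2 and for FS2-AEBP2, while in AEBP2 replicate 1 they were Dll4 and Lfng.

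The sizes and ranks were set beside those of the 1023 genes in all 5 lists. Their median AEBP2 promoter peak was 2466 bp in replicate 1 and 3413 bp in replicate 2, and that of the 6 Notch genes in all 5 lists was 1995.5 and 3743 bp. The H3K27me3 medians were 9317 and 7880 bp for the 1023 genes, which include the 6, and 14083.5 and 7694 bp for the 6. For FS2-AEBP2 they were 1974 and 1129 bp. The median ranks of the 6 were below those of the 1023 genes in 4 of the 5 lists, at 50.9% against 62.5% and 72.8% against 85.1% in the AEBP2 replicates, 26.6% against 69.3% for FS2-AEBP2 and 87.3% against 93.7% in H3K27me3 replicate 1. In H3K27me3 replicate 2 both were 91.1%. Within the 1023 genes, the Dll4 AEBP2 peak was longer than 91.5% in replicate 1 and 84.8% in replicate 2, and that of Hey2 longer than 11.5% and 28.7%. The gene start itself lay inside an FS2-AEBP2 peak at 2 of the 6 genes, Dll1 and Dll4, and at 58.7% of the 1023. In AEBP2 replicate 2 it did so at all 6, and at 91.5% of the 1023.

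**Figure D3:**
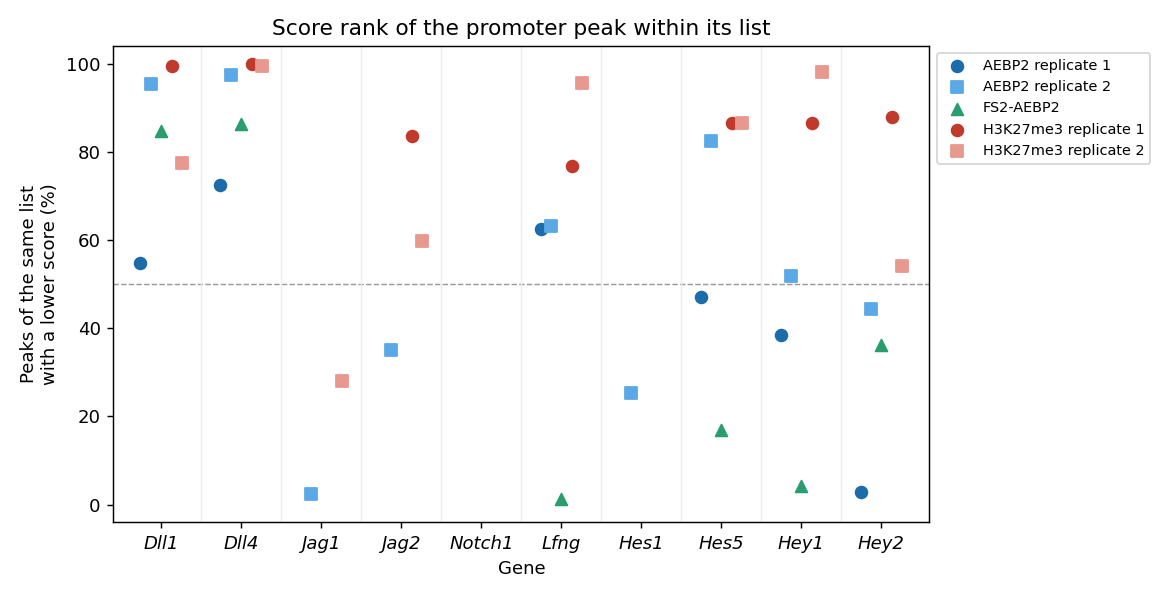
Percentage of peaks of the same list with a lower score (y axis) for the promoter peak of each gene (x axis) in each list (colours and markers), with a dashed line at 50%. H3K27me3 peaks lie at or above 54.1% at every gene except Jag1, AEBP2 and FS2-AEBP2 ranks spread from 1.2% to 97.4%, and no point is drawn where a list had no promoter peak.

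CpG content within 1 kb of the annotated gene start, which the choice did not use, was high at 9 of the 10 genes. Notch1 was the exception, but its coding transcript starts 12841 bp further on, with 129 CpGs within 1 kb. A CpG-island-like region was built from 500 bp windows in which GC reached 55% and the CpG count reached 0.65 of that expected from base composition. One lay in the promoter of 9 of them, all but Notch1. This was so for 55% of all protein-coding genes and for 96.8% of the 1023 genes in all 5 lists. The median number of CpGs within 1 kb of the gene start was 141.5 for the 10 genes, 61 for all genes and 117 for the 1023. CpG number at the gene start did not order the 10 genes by peaks. Jag2 had the most CpGs (259, more than 99.9% of all genes), with Hes1 (172) and Jag1 (166) next, and these 3 were in 3, 1 and 2 lists. The 6 genes in all 5 lists had from 92 (Dll1) to 157 (Hey1). Within 1 kb of the start of the lowest-numbered coding transcript, Hes1 had 95, the lowest of the 10, and Dll1 had 146. Jag2 (259) and Jag1 (166) still had more there than the 6 genes, which had from 105 (Dll4) to 157 (Hey1). Among the 12310 genes with a CpG-island-like region, 16% had a peak in AEBP2 replicate 1, 39% in AEBP2 replicate 2, 11.4% for FS2-AEBP2, 24.5% in H3K27me3 replicate 1 and 27.5% in H3K27me3 replicate 2. In both replicates, 14.9% of them had AEBP2 and 23.4% had H3K27me3, and 8.04% were in all 5 lists, where the counts of the 9 Notch genes with such a region were 6, 7 and 6.

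**Figure D4:**
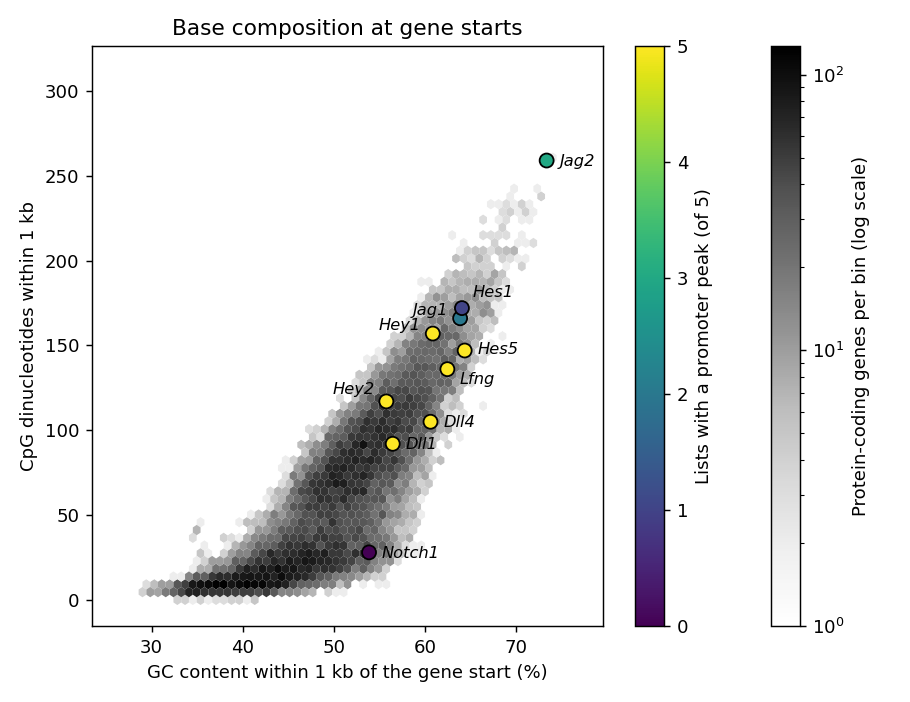
GC content (x axis, %) against the number of CpGs (y axis) within 1 kb of the gene start, for all 22367 protein-coding genes (grey bins, log scale) and the 10 Notch pathway genes (points coloured by the number of lists with a promoter peak). Jag2 with 259 CpGs, Hes1 with 172 and Jag1 with 166 lie above the 6 genes found in all 5 lists, and Notch1 with 28 lies below. At the start of the lowest-numbered coding transcript, which is not plotted, Hes1 had 95 CpGs and Notch1 had 129.

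Over the gene body the counts were close to those at the promoter. A peak lay over the body of 5 of the 10 genes in AEBP2 replicate 1 (10.3% of all genes), of 9 in replicate 2 (24.9%), of 6 for FS2-AEBP2 (7.69%), and of 7 and 8 in the H3K27me3 replicates (20.8% and 20.2%). Hey2 was the gene with an AEBP2 peak of replicate 1 at the promoter but not over its body. H3K27me3 covered from 72.9% to 100% of Dll1, Dll4, Hes5 and Hey1 in both replicates, and 54.8% and 55.4% of Lfng. At Hey2 it covered 35.3% and 23.0%, and at Jag2 11.4% and 7.61%.

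Another 44 genes of the pathway were listed by role, also with earlier results of these data known, and all were in the annotation. A promoter peak was found at 6 of them in AEBP2 replicate 1, 16 in AEBP2 replicate 2, 6 for FS2-AEBP2, and 12 and 14 in the H3K27me3 replicates. As shares these were 13.6%, 36.4%, 13.6%, 27.3% and 31.8%, beside 16%, 39%, 11.4%, 24.5% and 27.5% of all genes with a CpG-island-like region, which 37 of the 44 had. Both AEBP2 replicates had a peak at Dlk1 and Dlk2, which are non-canonical ligands, at Maml3, a coactivator of the Mastermind-like family, at Hes2 and Hes7, and at Nrarp, a feedback inhibitor. These 6 were in all 5 lists. H3K27me3 was in both replicates at these and at Dner, a further non-canonical ligand, Furin, a protease that matures the receptor, the Deltex genes Dtx1 and Dtx4, and Heyl. The annotated start of Furin, with 25 CpGs within 1 kb, lies 2674 bp before that of its lowest-numbered coding transcript, with 207. Its H3K27me3 peaks, ranked at 23.0% and 38.4%, did not reach that coding start.

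The peaks of these genes were also counted by role, without a test. Of 4 further ligands, 3 had an H3K27me3 peak in replicate 1 and all 4 in replicate 2, and of 6 further Hes and Hey family genes or targets 5 and 4 did. Of 8 processing enzymes, 1 had H3K27me3 (Furin, in both replicates), and of 8 nuclear effectors and cofactors 1 did (Maml3), where 17% and 17.7% of all genes had a peak in the H3K27me3 replicates. Of 11 ubiquitin ligase and trafficking genes 2 and 3 did. AEBP2 replicate 2 had a peak at 2 of the 4 ligands, 4 of the 6 Hes and Hey family genes or targets, 3 of the 8 nuclear effectors and 5 of the 11 ubiquitin ligase and trafficking genes, where 22.3% of all genes had one. The numbers per role are too small to order the roles. In all, 23 of the 44 genes had no promoter peak in any list, beside 68.5% of all genes. Of the 12310 genes with a CpG-island-like region, 6237 had none. Among the 23 were Rbpj (the DNA-binding partner of Notch), Notch3, Notch4, Adam10, Adam17, Ncstn, Aph1a, Psenen and Maml1. Notch2 had a peak in H3K27me3 replicate 2 only. A peak of AEBP2 replicate 2 with no H3K27me3 in either replicate, as at Hes1, was found for example at Rfng, Ep300, Spen, Itch and Numb.

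The AEBP2 peaks of these further genes were shorter than those of Dll4. In replicate 2 they measured 2337 bp at Dlk1, 1910 bp at Dlk2, 3719 bp at Maml3, 2990 bp at Hes2, 1434 bp at Hes7 and 840 bp at Nrarp. In replicate 1 they were 1340 bp at Dlk1, 1874 bp at Dlk2, 2823 bp at Maml3, 1019 bp at Hes2 and 261 bp at Nrarp. Hes7, a repressor of the segmentation clock, had separate AEBP2 peaks of 223 and 769 bp in replicate 1. The Maml3 peaks were longer than the promoter peaks of Lfng, Hey1 and Hey2 in both replicates, and shorter than those of Dll1 and Dll4. Heyl had H3K27me3 peaks of 12259 and 11883 bp, close to the 12415 bp of Hey1 in replicate 1, and no AEBP2 or FS2-AEBP2 peak at its promoter. Over the gene body of Heyl, AEBP2 replicate 2 had a peak, and AEBP2 replicate 1 and FS2-AEBP2 had none.

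**Figure D5:**
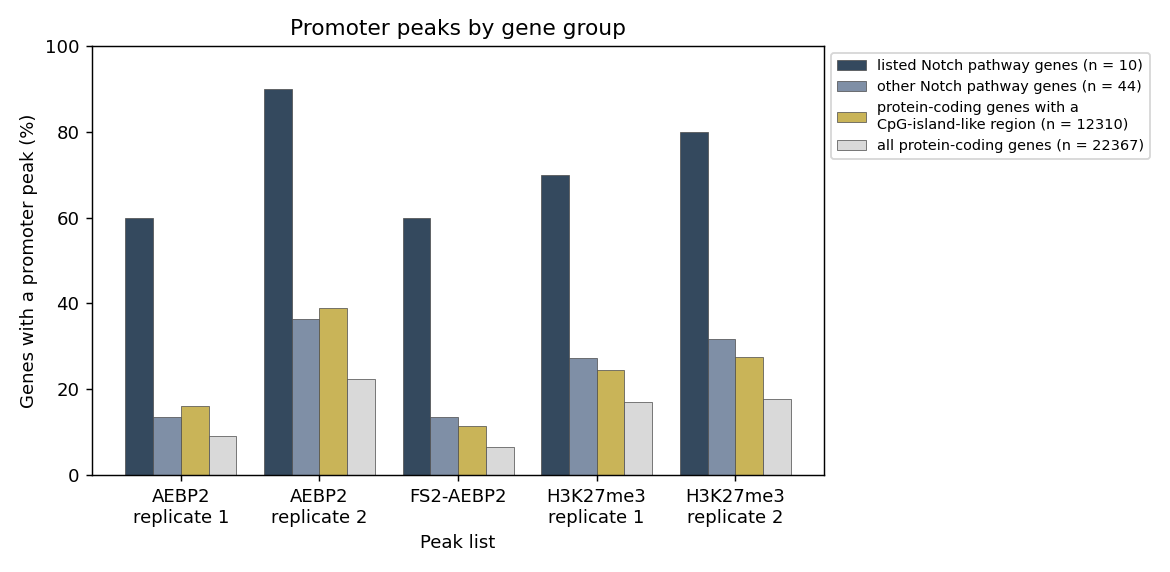
Percentage of genes with a promoter peak (y axis) in each list (x axis) for the 10 listed Notch pathway genes, the 44 other Notch pathway genes, the 12310 genes with a CpG-island-like region and all 22367 protein-coding genes. The bars of the 10 genes stand at 6, 9, 6, 7 and 8 of 10, while the 44 other genes lie between 13.6% and 36.4%.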

How the data were processed

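The 5 peak lists were used as deposited, 1 per ChIP-seq sample. Per the labels, the authors' processing named Bowtie, SAMtools, Picard and MACS2 2.0.10.2 and the mm9 build. Their roles, thresholds and control libraries are not given in the sources used here. Each deposited list gives the position of every peak, the blocks inside it and a whole-number score of unstated scale, so scores were ranked only within a list. The autosomes and both sex chromosomes were used, which left out 2 peaks of AEBP2 replicate 1 and 13 of H3K27me3 replicate 2, and no peak ran past a chromosome end of mm9.

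Gene positions came from GENCODE vM1, and sequences and base composition from the mm9 genome. The gene start was the 5 prime end of the annotated gene. Where a promoter had several peaks of a list, that with the most base pairs in the promoter gave the length and rank. CpG windows were taken every 10 bp. The printed sequences stop before the start, where 50 further bases had been planned, so as to leave out transcribed bases. The 10 genes, the 44 other pathway genes and the marker genes were chosen with earlier results of these data known. All 10 genes are named, and of the 44 those with AEBP2 or H3K27me3 in both replicates, and others named by role were chosen after their values were seen. Samples were grouped by their titles. No test was run, since there are 2 lists per endogenous target, 1 for FS2-AEBP2 and no counts, and a count of genes is set beside that over all genes instead. Whether replicates are separate cultures is not stated beyond the design text, which calls them biological. The overlap code was tested on simulated data. Alternatives changed the promoter width, the start site, the overlap, the score threshold, the replicates, the joining of peaks and the reference for ranks. Python 3.11.15, numpy 2.4.6, pandas 2.3.3 and matplotlib 3.10.9 were used.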

Additional observations from a re-analysis of the deposited data

How the results depend on the processing

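Of 78 values recomputed under an alternative, 65 stayed close to the reported value, which for a count means within 1.5 times. The counts of genes with AEBP2 in both replicates (6) and H3K27me3 in both (7) were at least 4 and 7 under the other promoter and score settings, and with 1 replicate alone they ran from 6 to 9 and from 7 to 8. A score threshold set at each list's median lowered the FS2-AEBP2 promoter count from 6 to 2 of the 10 genes (Dll1 and Dll4 stayed). The share of all genes went from 6.53% to 3.94%. The FS2-AEBP2 gene body count of the 10 genes went from 6 to 3. The same setting lowered the count of the 44 other genes from 6 to 3 in AEBP2 replicate 1 and from 14 to 9 in H3K27me3 replicate 2. Hey2 lost its AEBP2 promoter peak of replicate 1 with 500 bp on either side of the start, with at least 500 bp covered, and with the median score. Ranking promoter peaks among promoter peaks only gave medians of 47.7% and 48.0% for the AEBP2 replicates, 22.7% for FS2-AEBP2, and 63.2% and 69.3% for the H3K27me3 replicates. Joining peaks within 1 kb raised the FS2-AEBP2 median length from 1129 to 2001.5 bp. Without H3K27me3 replicate 1, 85.9% of the base pairs of the AEBP2 replicate 2 peaks lay inside H3K27me3, and without H3K27me3 replicate 2 it was 89.3%. For FS2-AEBP2 these were 97.5% and 100%. No paired analysis was possible because the results come from no test. The depth of the lists is unknown, and the cause of these shifts was not tested.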

Other observations

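Each peak in the lists is subdivided into blocks, whose threshold is not stated. The H3K27me3 promoter peaks of Dll4 held 16 blocks over 15328 bp in replicate 1 and 18 blocks over 13087 bp in replicate 2. Those of Dll1 held 18 and 13. The AEBP2 promoter peaks of Dll4 held 9 and 8 blocks, against 3 and 2 at Lfng and 2 and 6 at Hes5. The single-replicate peaks at Jag1 held 1 block each, of 216 bp for AEBP2 and 269 bp for H3K27me3. At Hey2 in H3K27me3 replicate 2, the block of the 2398 bp peak covered 2026 bp.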
